A study of Mus musculus with 6 samples.

Results

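The cytochrome P450 genes of the mouse kidney cortex were compared between wild-type (WT) mice and mice without the receptor of the complement fragment C3a (C3aR-/-). A gene was counted as a P450 gene when its name in the array files began with Cyp, a family number and a subfamily letter. Cyp27b1, Cyp24a1, Cyp4a10, Cyp4a14, Cyp4b1 and Cyp51 were left out by the same rule. This gave 96 names, read by 128 probes, of 36944 named genes on the array. They fell into 37 subfamilies. The rule works on names, so it also took the pseudogenes Cyp2c53-ps, Cyp2d37-ps, Cyp4b1-ps2 and Cyp4f41-ps and the opposite-strand transcript Cyp4x1os.

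The samples were 6 one-colour Agilent arrays of cortical RNA from male C57BL/6 mice, 3 labelled WT control and 3 labelled C3aR-/- control. Per the labels, feeding of normal chow (10% of calories as fat) began in mice aged 8 weeks. After 4 weeks of it they were injected with vehicle, in place of streptozotocin, on 3 days in a row, and tissue was taken 20 weeks later. Both genotypes thus shared chow and vehicle, and the diabetic arm of the study was not analysed here. The labels name neither the deleted part of the receptor gene nor whether the 3 samples of a genotype were separate animals, so each p-value reflects the scatter of these samples, which may be technical.

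P450 enzymes are haem proteins that insert oxygen into their substrates. Microsomal members receive electrons from the reductase encoded by Por and mitochondrial members through ferredoxin and its reductase. Families with low numbers clear drugs and also act on steroids and arachidonic acid, family 4 hydroxylates the ends of fatty acids and eicosanoids, and higher families mostly build or break down sterols, steroid hormones, vitamin D and retinoic acid. In the kidney most of this activity is in the proximal tubule, and in mice the expression of several members depends on sex.

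Each array had 59305 transcript spots, with 33530 to 35147 of them well above background. Levels are log2 signals relative to the 75th percentile of the array. Of 20490 genes tested, 1444 were higher and 1487 lower in C3aR-/- cortex. All WT arrays were on one slide and all C3aR-/- arrays on another, so slide and genotype cannot be told apart. C3aR-/- replicate 1 had 148 non-uniform spots, against 2 to 8 on the other arrays. The C3ar1 probe read -5.03, -6.17 and -5.60 in WT and -5.60, -5.47 and -6.05 in C3aR-/- samples. It was well above background on 1 WT array only, so it gave no check of the genotype. The proximal tubule markers Lrp2, Cubn, Slc34a1, Slc5a2, Slc22a6, Slc22a8 and Aqp1 were all well above background on every array. In such bulk RNA, fewer cells of a type and less RNA per cell cannot be told apart.

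Of the 96 P450 genes, 56 were tested and 40 were not. The test needed a probe that stood well above background on every array of WT, of C3aR-/- or of both. Among the untested, 34 were not well above background on any of the 6 arrays, and Cyp2c54, Cyp3a13, Cyp4f41-ps, Cyp4x1 and Cyp19a1 passed on some arrays only. Cyp2d11 was bright on every array but had a flagged spot. The untested genes included all 8 members of the CYP3A subfamily, the main drug-metabolising P450s of liver and gut, of which 7 were dim on all arrays. Also dim throughout were Cyp1a2, the bile acid enzymes Cyp7a1 and Cyp8b1, and the adrenal enzymes Cyp11a1, Cyp11b1 and Cyp11b2. All 6 members of CYP2J, a subfamily that epoxidises arachidonic acid, were tested.

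**Figure D1:**
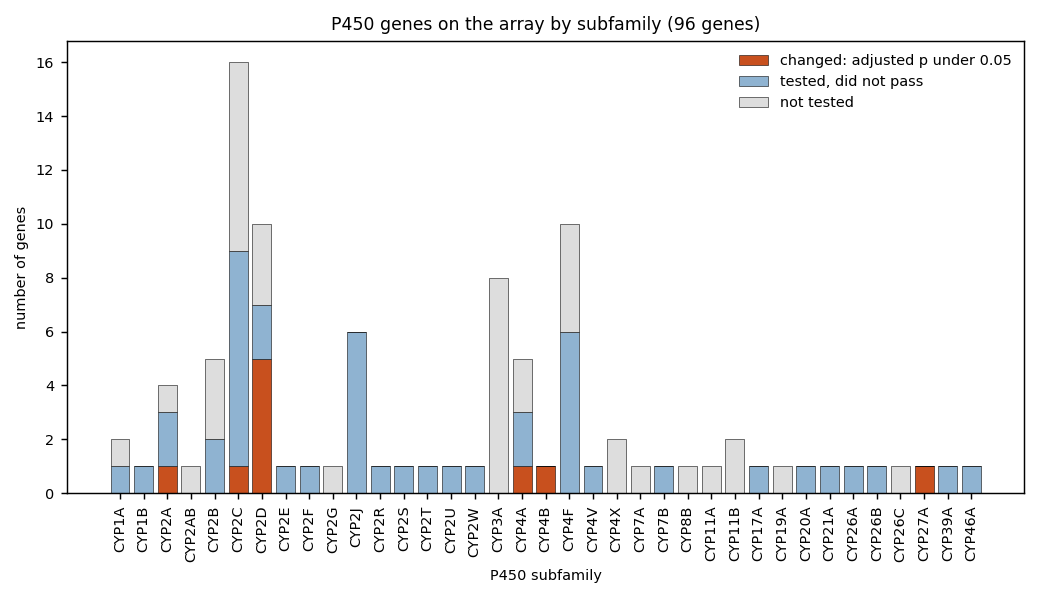
Number of P450 genes (vertical axis) in each subfamily (horizontal axis), split by whether the gene was tested and passed an adjusted p of 0.05 in limma. CYP2D had 5 genes that changed of 10, and none of the 8 CYP3A genes was tested.

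Higher in C3aR-/- cortex were 8 P450 genes, Cyp2d9, Cyp2d10, Cyp2d12, Cyp2d22, Cyp2d26, Cyp2c55, Cyp4a31 and Cyp27a1, by 1.26-fold to 1.97-fold. Lower were Cyp4b1-ps2 and Cyp2a22, by 2.22-fold and 3.22-fold. The 8 higher genes were 14.3% of the 56 tested, against 7.05% of all genes tested, and the 2 lower genes were 3.57%, against 7.26%. Counting both directions, 17.9% of tested P450 genes and 14.3% of all genes changed. The median log2 change was 0.19 over the tested P450 genes and 0.02 over all genes, and 37 of 56 changes (66.1%) were positive, against 52.6%. The CYP2D subfamily alone, with 7 genes tested, held 5 of the 8 higher genes and 7 of the 37 positive changes. The shares over all P450 genes thus lean on this subfamily. In 25 genes (44.6%) the arrays of the genotypes did not overlap, a share close to the 41.3% of all genes. The other 46 tested P450 genes did not pass. Cyp2c40, Cyp2d40, Cyp2w1, Cyp20a1 and Cyp21a1 entered the test through the genotype where they were higher, and the counts above include them. The count of higher genes was 5, 4 and 5 without WT replicates 1, 2 and 3, and 6, 3 and 2 without C3aR-/- replicates 1, 2 and 3. The count of lower genes was 1 whichever array was left out.

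**Figure D2:**
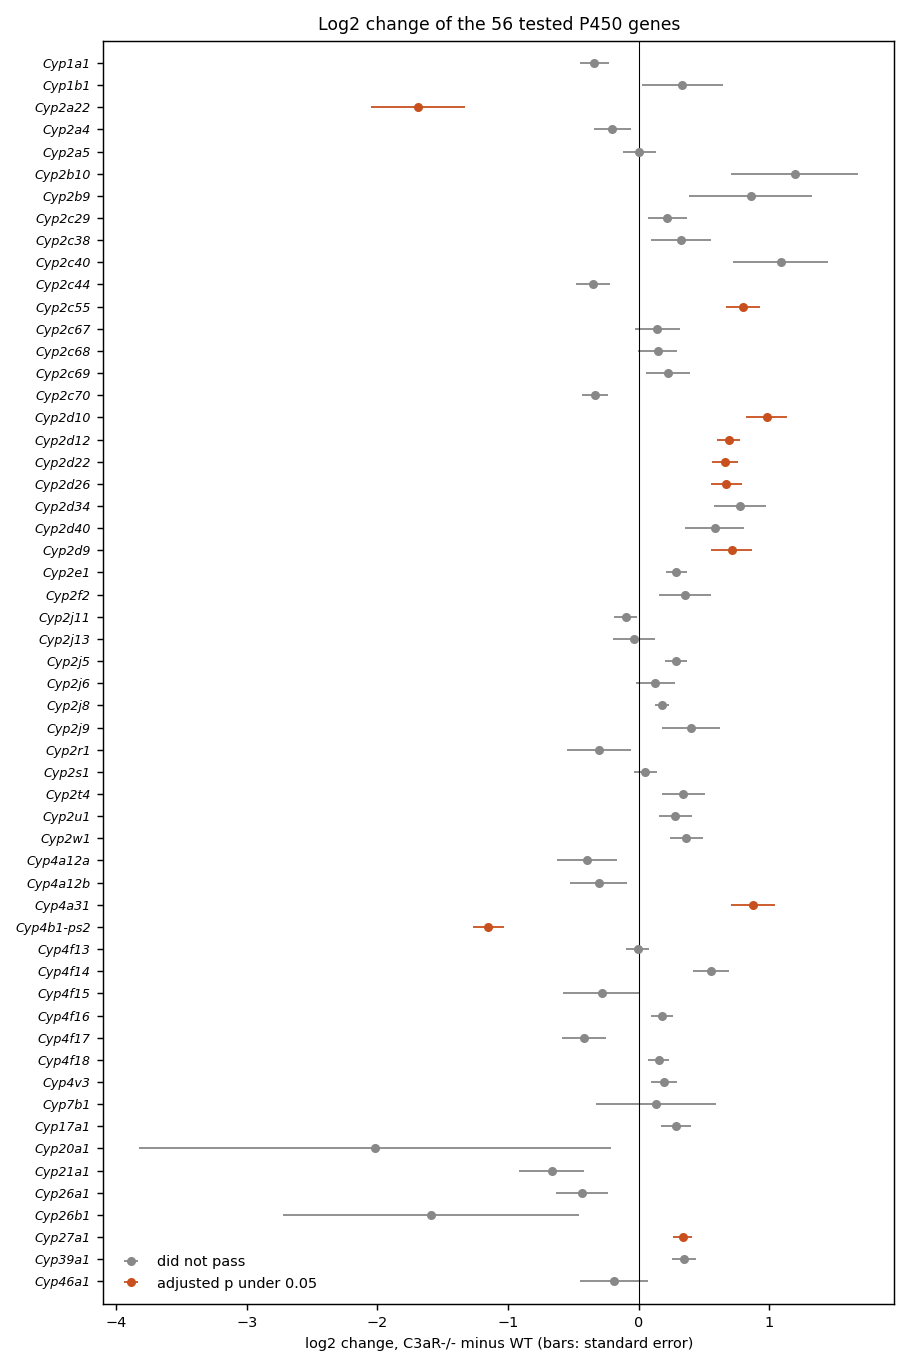
Log2 change (C3aR-/- minus WT, horizontal axis) with its standard error for the 56 tested P450 genes, ordered by family from top to bottom. The 6 Cyp2d genes well above background on all arrays lie between 0.66 and 0.98, Cyp2d40 (0.58) was mostly dim in WT, and the widest error bars are those of Cyp20a1 and Cyp26b1.

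CYP2D had the most calls of any subfamily. This subfamily, to which the human drug-metabolising enzyme CYP2D6 belongs, is a tandem cluster on chromosome 15 in the mouse. Of 7 tested members, 6 were well above background on all 6 arrays. Their changes ran from 0.66 to 0.98, 5 of them passed the test, and in all 6 the genotypes did not overlap. These counts stand beside 7.05% called higher and 41.3% not overlapping among all genes. The other tested member, Cyp2d40, entered the test only through the C3aR-/- arrays, where it was higher, so its direction adds nothing to these counts. Members lie side by side and resemble each other in sequence, so they are not independent of one another.

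The largest change in the cluster was that of Cyp2d10 (probe at chr15:82233388-82233447, mm9). It read 3.09, 2.78 and 2.70 in WT and 4.10, 3.79 and 3.63 in C3aR-/- samples. Every C3aR-/- array was above every WT array, and the log2 change was 0.98 (SE 0.16, adjusted p = 0.0183, limma). The call was lost without WT replicate 2 or 3 or C3aR-/- replicate 2, with an adjusted p of up to 0.0640.

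For Cyp2d12 (chr15:82388259-82388501) the levels were 3.29, 3.18 and 3.46 in WT and 3.94, 4.001 and 4.06 in C3aR-/- samples. The genotypes were clearly apart, and the C3aR-/- arrays lay close together. The log2 change of 0.69 (SE 0.09, adjusted p = 0.0110, limma) stayed past the threshold whichever array was left out.

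Cyp2d9 (chr15:82285582-82285641) encodes a testosterone hydroxylase known for its male-specific expression in mouse liver. It read 2.15, 2.77 and 2.45 in WT against 3.15, 3.14 and 3.21 in C3aR-/- samples. WT samples spread widely, while C3aR-/- samples were nearly equal. The log2 change was 0.71 (SE 0.16, adjusted p = 0.0364, limma). Of the 6 fits that leave out an array, only the one without WT replicate 2 kept this call, and the adjusted p reached 0.105.

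Cyp2d26 (chr15:82620575-82620634), at the end of the cluster with the highest coordinates, had levels of 5.67, 5.44 and 5.28 in WT and 6.26, 6.10 and 6.04 in C3aR-/- samples. No WT array reached the C3aR-/- range. Its log2 change was 0.67 (SE 0.12, adjusted p = 0.0228, limma), and its other probe gave 0.59. Without WT replicate 2 or any 1 of the C3aR-/- replicates the gene no longer passed, at an adjusted p of up to 0.0727.

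Cyp2d22 (chr15:82201687-82201746) lies at the opposite end. It read -2.70, -2.87 and -2.63 in WT and -2.18, -1.93 and -2.11 in C3aR-/- samples. Its arrays also separated by genotype, with a log2 change of 0.66 (SE 0.10, adjusted p = 0.0156, limma). This call was lost without WT replicate 1 or C3aR-/- replicate 3, at an adjusted p of up to 0.0541.

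The remaining CYP2D genes were less clear. Cyp2d34 read -2.77, -2.08 and -2.65 in WT and -1.59, -1.91 and -1.65 in C3aR-/- samples, a log2 change of 0.78 (SE 0.20) just outside the threshold (adjusted p = 0.0526, limma). Cyp2d40 was well above background on 1 WT and all 3 C3aR-/- arrays, and its log2 change of 0.58 (SE 0.23) did not pass (adjusted p = 0.137, limma). Cyp2d11 read 5.47, 5.67 and 5.64 in WT and 4.64, 6.26 and 6.27 in C3aR-/- samples. The low value is the non-uniform spot of C3aR-/- replicate 1, for which the gene was left out of the fit. With that spot kept the log2 change was 0.14 (adjusted p = 0.856, limma), and without that array it was 0.68 (adjusted p = 0.0203, limma). Cyp2d13 and Cyp2d37-ps were dim on all arrays.

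**Figure D3:**
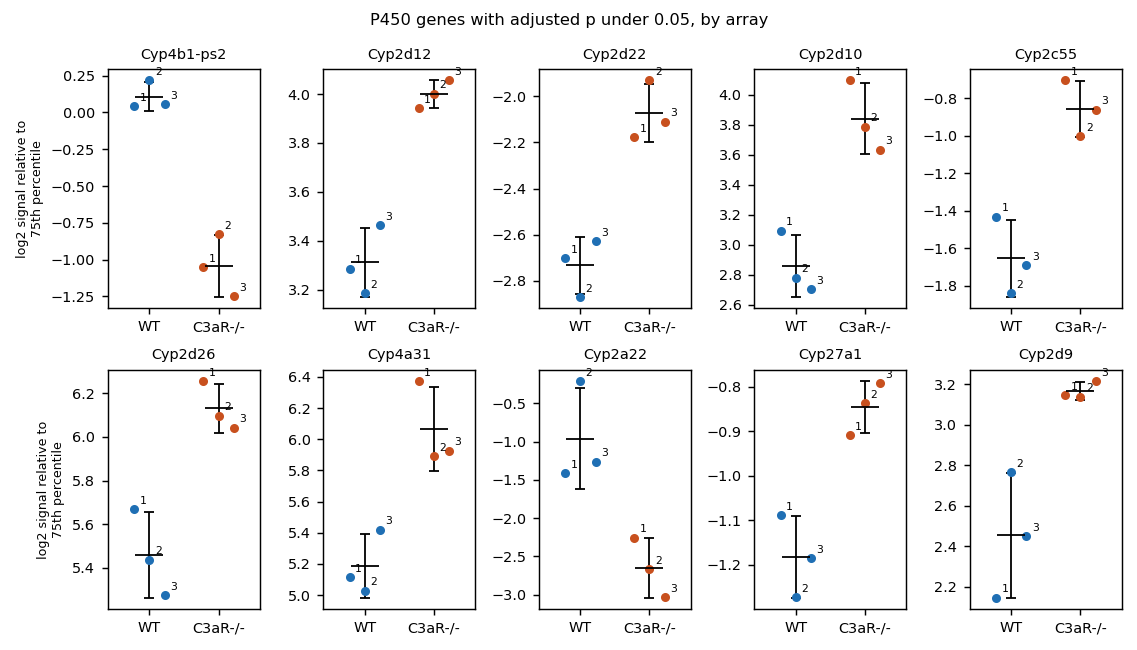
Log2 signal minus that of the 75th percentile of its array (vertical axes, 1 scale per gene) in each WT and C3aR-/- array, numbered by replicate, with the mean and SD of each genotype. In all 10 genes that passed the test, the arrays of the genotypes did not overlap.

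Genes around the cluster had smaller changes, a difference that was not tested. The CYP2D probes span 419 kb on mm9. Within 250 kb of them, 12 other genes or transcripts were tested, with log2 changes from -0.27 to 0.38 and a median of 0.06. Of these, 1 was called. The single other transcript tested between CYP2D genes, ENSMUST00000100380, changed by 0.38 (SE 0.18, adjusted p = 0.191, limma), which did not pass.

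**Figure D4:**
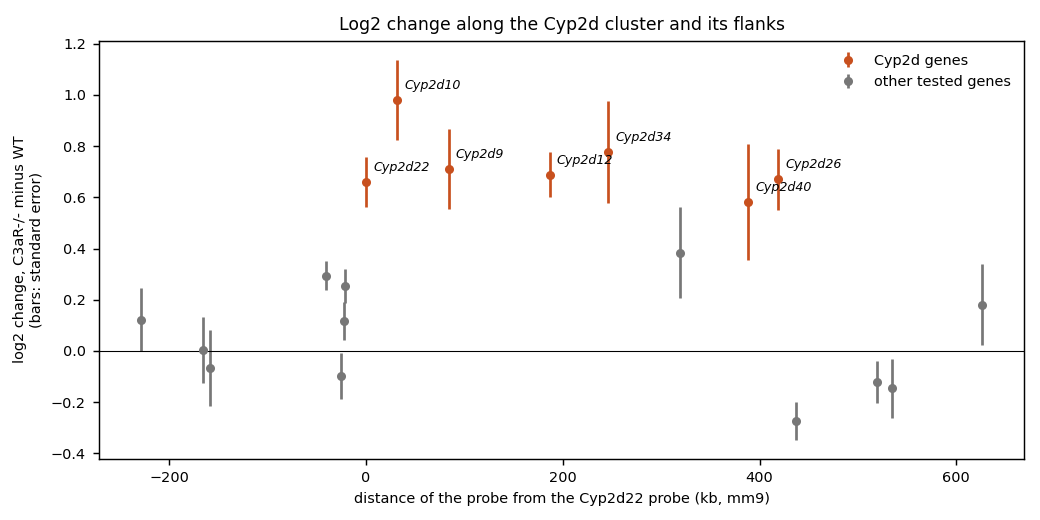
Log2 change with its standard error (vertical axis) against distance from the Cyp2d22 probe in kb (horizontal axis) for the tested genes of the Cyp2d cluster and its flanks. The 6 Cyp2d genes well above background on all arrays lie at 0.66 or more, and the 12 other genes at 0.38 or less. Cyp2d40 (0.58) was well above background on 1 WT array only.

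Promoters are shown for CYP2D because this subfamily had the most calls. RefSeq promoter sequences (GRCm38.p6) were at hand for 5 of the 10 members. Of these, Cyp2d9, Cyp2d10 and Cyp2d26 were called, Cyp2d40 did not pass and Cyp2d11 was not tested. The 120 bases before each start follow, 5′ to 3′ on the strand of the gene. They lie at chr15:82452257-82452376 (+ strand) for Cyp2d9 and, on the - strand, at chr15:82407195-82407314 for Cyp2d10, chr15:82394023-82394142 for Cyp2d11, chr15:82764123-82764242 for Cyp2d40 and chr15:82794246-82794365 for Cyp2d26. Capitals mark CTTTATAAGG, the longest run of letters that all 5 share.
Cyp2d9: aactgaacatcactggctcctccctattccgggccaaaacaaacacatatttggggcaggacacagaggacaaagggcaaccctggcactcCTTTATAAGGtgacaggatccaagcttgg
Cyp2d10: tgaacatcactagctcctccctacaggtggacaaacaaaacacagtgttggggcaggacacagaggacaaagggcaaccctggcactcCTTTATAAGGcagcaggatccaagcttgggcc
Cyp2d11: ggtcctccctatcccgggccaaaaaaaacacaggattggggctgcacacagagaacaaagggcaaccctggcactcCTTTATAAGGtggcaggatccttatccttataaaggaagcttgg
Cyp2d40: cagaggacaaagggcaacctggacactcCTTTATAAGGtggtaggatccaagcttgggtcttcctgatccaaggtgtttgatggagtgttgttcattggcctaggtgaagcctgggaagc
Cyp2d26: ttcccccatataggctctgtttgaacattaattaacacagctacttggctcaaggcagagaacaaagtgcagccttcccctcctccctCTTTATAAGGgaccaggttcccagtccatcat
The run begins 29 bases before the start in Cyp2d9, 32 in Cyp2d10 and Cyp2d26, 44 in Cyp2d11 and 92 in Cyp2d40. Capitals cover the strand of the gene only. The Cyp2d11 window also holds the run on the opposite strand, nearer to the start and in lower case.

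This run was taken from the sequences after the values had been seen. Searched on both strands over the whole promoter entries, it occurred in 0.115% of 27025 genes with a promoter entry. Among the 72 P450 genes with a promoter it occurred in 6, the 5 CYP2D genes and Cyp26a1. The 5 CYP2D genes hold it because the run was defined by them, so their share cannot be set against that of all genes. TATAAA, the core of a TATA box, occurred in 31 of the 72 (43.1%) and in 15.667% of all genes with a promoter entry. Since CTTTATAAGG holds TATAAA on its opposite strand, these searches overlap. TNGCGTG, the core bound by the dioxin receptor, occurred in Cyp2c68 only, against 5.839% of all genes with a promoter entry. The nuclear receptor motifs DR1 and DR4, searched as perfect repeats, occurred in none of the 72. Both are rare in this form, in 0.048% and 0.015% of all genes with a promoter entry. Their absence from 72 genes therefore says nothing particular about P450 genes. The longest run shared by a pair of CYP2D promoters was 51 bases, between Cyp2d9 and Cyp2d10, and the shortest was 10 bases. A match describes these letters and is not a binding site.

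The array probes of the CYP2D genes were also compared. Over 45 pairs, the closest pair, Cyp2d10 and Cyp2d11, matched at 36 of 49 aligned bases. Hybridisation of a probe to the transcript of another member was not tested. All P450 probes were then paired across genes, here with names that the rule left out, such as Cyp4a10 and Cyp4b1. Among these 9003 pairs, 2 matched at 40 bases or more. One was the pair of Cyp2c67 and Cyp2c68, at 55 of 59 bases, which is shown as windows of 30 bases because the probes are so alike. Capitals mark the bases that differ.
Cyp2c67: acAcagtcccagAaattccatctatattcc
Cyp2c68: acCcagtcccagGaattccatctatattcc
The log2 changes of Cyp2c67 and Cyp2c68 were 0.14 (SE 0.17) and 0.15 (SE 0.15), neither past the threshold (adjusted p = 0.595 and 0.525, limma). The other close pair was Cyp3a25 and Cyp3a57, both dim.

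In the CYP2C subfamily, whose enzymes epoxidise and hydroxylate arachidonic acid, 9 of 16 genes were tested and 1 rose. Cyp2c55 (chr19:39110063-39110122) read -1.43, -1.84 and -1.69 in WT and -0.70, -1.003 and -0.86 in C3aR-/- samples. All C3aR-/- arrays were higher, with a log2 change of 0.80 (SE 0.13, adjusted p = 0.0195, limma). Its other probe was dim. The call was lost without WT replicate 2 or 3 or C3aR-/- replicate 3, with an adjusted p of up to 0.0647. Cyp2c40 read -4.26, -5.06 and -5.71 in WT and -4.04, -3.65 and -4.08 in C3aR-/- samples, but was well above background on 1 WT array only, and its log2 change of 1.09 (SE 0.36) did not pass (adjusted p = 0.0990, limma). Cyp2c44, now named Cyp2c23, encodes a renal arachidonic acid epoxygenase. Its log2 change was -0.35 (SE 0.13, adjusted p = 0.123, limma), and its other probe gave -0.06.

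None of the 6 CYP2J genes passed. Cyp2j5, an epoxygenase typical of mouse kidney, read 5.57, 5.62 and 5.50 in WT and 5.99, 5.77 and 5.79 in C3aR-/- samples. These groups did not overlap, but the log2 change of 0.29 (SE 0.08) missed the threshold (adjusted p = 0.0692, limma), and the other probe gave 0.03. Cyp2j8 had the smallest spread of any tested P450 gene, with a pooled SD of 0.03 within genotypes. Its levels of 4.55, 4.56 and 4.54 in WT and 4.72, 4.69 and 4.78 in C3aR-/- samples did not overlap, and the log2 change of 0.18 (SE 0.06) did not pass (adjusted p = 0.0836, limma). Cyp2j6, Cyp2j9 and Cyp2j13 each had probes that differed in sign, and the 4 probes of Cyp2j13 ranged from -0.39 to 0.09.

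Cyp2e1, which oxidises ethanol and acetone, also lay just outside the threshold. It read 7.24, 7.26 and 7.14 in WT and 7.63, 7.48 and 7.40 in C3aR-/- samples, without overlap. The log2 change was 0.29 (SE 0.08, adjusted p = 0.0666, limma), and its other probe gave 0.43.

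The CYP2A, 2B, 2F, 2G, 2S and 2T genes form a cluster on chromosome 7. There, 8 of 13 genes were tested and 1 changed. Cyp2a22 (chr7:27722746-27722805) read -1.41, -0.21 and -1.26 in WT and -2.26, -2.67 and -3.03 in C3aR-/- samples. It was lower on every C3aR-/- array, with a log2 change of -1.69 (SE 0.36, adjusted p = 0.0348, limma). This call was lost whichever array was left out, at an adjusted p of up to 0.0995. Its relatives Cyp2a4, a testosterone hydroxylase, and Cyp2a5, a coumarin hydroxylase, had log2 changes of -0.20 (SE 0.14) and 0.01 (SE 0.13), which did not pass (adjusted p = 0.356 and 0.977, limma). The sign of the Cyp2a5 value turned under quantile normalisation.

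Cyp2b10, a classical gene of the response to phenobarbital, read -0.83, -0.30 and -2.21 in WT and 0.21, -0.27 and 0.30 in C3aR-/- samples. WT replicate 3 was far below the other samples. The log2 change of 1.19 (SE 0.49) did not pass (adjusted p = 0.150, limma), and its other probe gave 1.11. Cyp2b9 was also lowest in WT replicate 3, at -2.996 against -1.70 and -1.23, and the genotypes overlapped.

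In family 4, 11 of 19 genes were tested, 1 rose and 1 fell. Cyp4a31 (chr4:115251553-115251612) belongs to the fatty acid omega-hydroxylases. It read 5.11, 5.03 and 5.42 in WT and 6.37, 5.89 and 5.93 in C3aR-/- samples, without overlap. The log2 change was 0.88 (SE 0.17, adjusted p = 0.0267, limma), and its other probe gave 0.66. The gene did not pass when WT replicate 1, WT replicate 2, C3aR-/- replicate 2 or C3aR-/- replicate 3 was left out, at an adjusted p of up to 0.0810. Of the CYP4A names that the rule left out, Cyp4a10 was called at 0.97 (SE 0.22, adjusted p = 0.0407, limma), while Cyp4a14 at 1.67 (SE 0.52) was not (adjusted p = 0.0850, limma).

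Not all CYP4A genes were higher. Cyp4a12a and Cyp4a12b, the androgen-dependent eicosanoid hydroxylases of male mouse kidney, had negative changes that did not pass. Cyp4a12a read 4.61, 4.41 and 4.05 in WT and 3.84, 3.66 and 4.38 in C3aR-/- samples, a log2 change of -0.40 (SE 0.23, adjusted p = 0.276, limma). Cyp4a12b changed by -0.31 (SE 0.22, adjusted p = 0.362, limma). Both pairs of groups overlapped.

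Cyp4b1-ps2, a pseudogene on chromosome 4 (chr4:115254696-115254755), had the smallest p of all P450 genes. It read 0.04, 0.22 and 0.06 in WT and -1.05, -0.83 and -1.25 in C3aR-/- samples. The genotypes were far apart relative to their spread, with a log2 change of -1.15 (SE 0.12, adjusted p = 0.00723, limma), and the call held whichever array was left out. Cyp4b1 itself, which the rule left out, had a log2 change of 0.12 (SE 0.07, adjusted p = 0.301, limma). The Cyp4b1-ps2 probe lies nearer to that of Cyp4a31 (chr4:115251553-115251612) than to that of Cyp4b1 (chr4:115297406-115297465). Cyp4a31 changed in the opposite direction to Cyp4b1-ps2.

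Of the CYP4F genes, which inactivate leukotrienes, 6 of 10 were tested and none passed. The nearest was Cyp4f14, at -2.57, -2.30 and -2.20 in WT and -1.94, -1.89 and -1.57 in C3aR-/- samples. Its groups did not overlap, and its log2 change of 0.56 (SE 0.14) missed the threshold by little (adjusted p = 0.0503, limma). Cyp4f13 changed by -0.01 (SE 0.09, adjusted p = 0.958, limma), and its probes differed in sign.

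Among the sterol enzymes, Cyp27a1 rose. It encodes the mitochondrial sterol hydroxylase of bile acid synthesis (chr1:74782203-74782262). Its levels were -1.09, -1.27 and -1.19 in WT and -0.91, -0.84 and -0.79 in C3aR-/- samples. The groups did not overlap and the spread was small, so that a log2 change of 0.34 (SE 0.07) passed (adjusted p = 0.0351, limma). The call was lost whichever array was left out, at an adjusted p of up to 0.110. It was also lost with normexp background correction, without a filter on dim probes and with the replicate number as a block. Cyp39a1, an oxysterol hydroxylase, read -0.34, -0.26 and -0.05 in WT and 0.19, 0.08 and 0.12 in C3aR-/- samples, a log2 change of 0.35 (SE 0.09) just outside the threshold (adjusted p = 0.0571, limma). Cyp7b1 and Cyp46a1 did not pass, and the probes of Cyp7b1 differed in sign (0.13 and -0.29).

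The steroid hormone enzymes measured were Cyp17a1, at 0.29 (SE 0.11, adjusted p = 0.142, limma), and Cyp21a1, at -0.67 (SE 0.25, adjusted p = 0.126, limma). Cyp21a1 was well above background on all WT arrays but on 1 C3aR-/- array. Neither change passed the test. The adrenal markers Star, Nr5a1, Akr1b7 and Scarb1 were tested and none was called, and Mc2r was dim on all arrays. The summed linear signal of 6 adrenal markers was 1.26 to 1.47 in WT and 1.42 to 1.48 in C3aR-/- samples. Most of this sum came from Akr1b7 and Scarb1.

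In family 1, Cyp1a1, a target of the dioxin receptor, read -3.45, -3.56 and -3.62 in WT and -3.73, -4.10 and -3.82 in C3aR-/- samples. Its groups did not overlap, and the log2 change of -0.34 (SE 0.11) did not pass (adjusted p = 0.0952, limma). Cyp1b1 changed by 0.33 (SE 0.31, adjusted p = 0.486, limma). Cyp2w1 was not well above background in WT samples, and the bound on its fold was 1.002.

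Several P450 genes varied widely between arrays of a genotype. The pooled SD within genotypes had a median of 0.22 over the 56 tested P450 genes and 0.12 over all genes tested, and 45 of the 56 lay above the latter. Cyp26b1, which degrades retinoic acid, read 2.85, -0.76 and 2.98 in WT and 0.98, -1.15 and 0.47 in C3aR-/- samples. Replicate 2 was the lowest of both genotypes, and the log2 change of -1.59 (SE 1.13) did not pass (adjusted p = 0.368, limma). Cyp26a1, of the same pathway, changed by -0.43 (SE 0.20, adjusted p = 0.186, limma). Cyp7b1 ranged from 1.90 to 3.55 in WT samples alone.

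A single spot set the value of Cyp20a1, an orphan P450 gene. It read -0.64, -0.79 and -0.92 in WT and -7.22, -0.58 and -0.59 in C3aR-/- samples. The low reading was on C3aR-/- replicate 1 and was not flagged by the scanner software. The log2 change was -2.02 (SE 1.80, adjusted p = 0.471, limma) with it and 0.19 without that array. Its other probes gave 0.26 and -0.11. Across all P450 genes with more than 1 probe past the filter, 7 of 14 had probes that differed in sign. Of the called genes only Cyp2d26 and Cyp4a31 had more than 1 such probe, and theirs had the same sign, so the other 8 calls rest on 1 probe each.

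**Figure D5:**
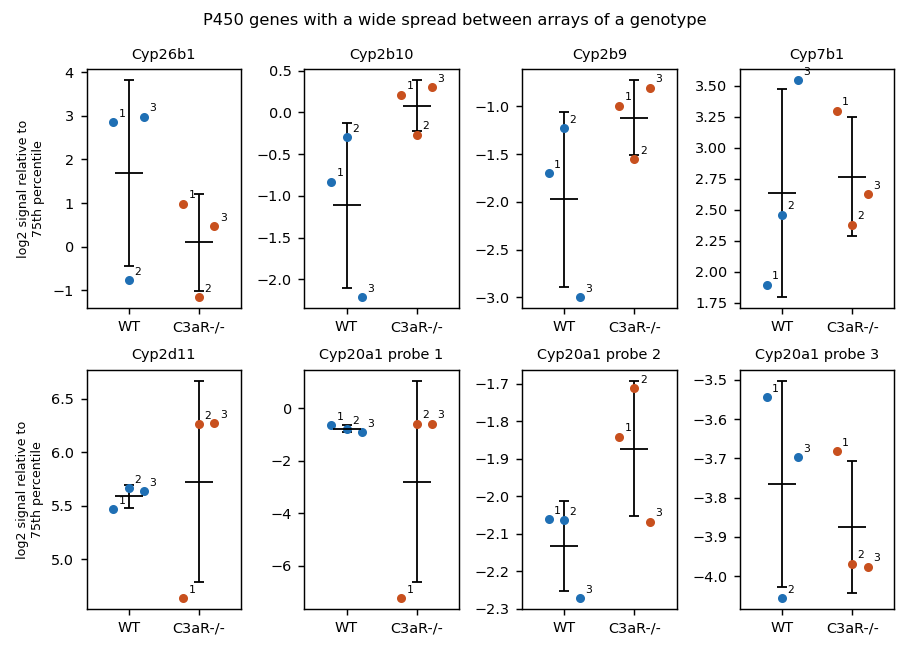
Log2 signal minus that of the 75th percentile of its array (vertical axes, 1 scale per panel) in each WT and C3aR-/- array, numbered by replicate, with the mean and SD, for P450 genes with a wide spread and for the 3 probes of Cyp20a1. C3aR-/- replicate 1 is the low point of Cyp2d11 (4.64) and of the brightest Cyp20a1 probe (-7.22).

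The redox partners of the P450 enzymes did not pass the test. Of 13 such genes and neighbours of the pathway, all were tested and 0 were called in limma, 2 of them at an unadjusted p under 0.05, and 10 (76.9%) had a positive change. Among all genes 14.3% were called and 52.6% were positive. Fdxr, the ferredoxin reductase of mitochondrial P450s, changed by 0.22 (SE 0.06, adjusted p = 0.0568, limma). Ptgis, the prostacyclin synthase, changed by 0.62 (SE 0.19, adjusted p = 0.0778, limma). Por, named for its role as the reductase of microsomal P450s, changed by 0.11 (SE 0.08, adjusted p = 0.383, limma).

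Of 20 transcription factors known to control P450 genes, 18 were tested, 2 were higher and 1 was lower. Together these are 16.7% of the factors tested, close to the 14.3% of all genes. Cebpa, a factor of liver and fat cell differentiation, rose by 0.51 (SE 0.11, adjusted p = 0.0307, limma). Ppara, the fatty acid receptor that controls CYP4A genes, rose by 0.57 (SE 0.12, adjusted p = 0.0363, limma), a call lost when its probes were averaged. Stat5a, which carries the growth hormone signal, fell by 0.47 (SE 0.11, adjusted p = 0.0438, limma), a call lost when its probes were averaged and with the deposited log2 table. The related Stat5b did not pass, at -0.01 (SE 0.09, adjusted p = 0.952, limma), and its probes ranged from -0.01 to 0.76. Nr1i3, the receptor through which phenobarbital acts, and Ahrr were dim on all arrays. These calls were lost without most single arrays, Ppara without each of the 6 and Cebpa and Stat5a without 5 of them, with an adjusted p of up to 0.113. None of 8 androgen-dependent kidney genes was called in limma, 2 of them at an unadjusted p under 0.05. Kap was the nearest, at 0.28 (SE 0.07, adjusted p = 0.0543, limma).

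Some markers of nephron segments changed as well. Of 6 genes of the proximal tubule segments S1 and S2, 4 rose, beside 7.05% of all genes, and the median change of the 6 was 0.51. These were Slc6a19 at 1.12 (SE 0.11, adjusted p = 0.00612, limma), Slc5a12 at 0.73 (SE 0.08, adjusted p = 0.00814, limma), Slc2a2 at 0.69 (SE 0.12, adjusted p = 0.0201, limma) and Slc5a2 at 0.34 (SE 0.07, adjusted p = 0.0335, limma). Of 6 genes of segment S3, only Slc2a1 changed, falling by 0.51 (SE 0.08, adjusted p = 0.0154, limma). The summed linear signal of 7 proximal tubule markers was 549 to 591 in WT and 633 to 646 in C3aR-/- samples, without overlap. All 7 had a positive change, with a median of 0.19, and 1 was called. For 4 collecting duct markers the sum was 24.3 to 25.8 in WT and 32.4 to 38.6 in C3aR-/- samples, and Aqp2, Aqp3 and Scnn1g rose. Aqp3 alone made up most of this sum. None of 2 thick limb, 2 distal tubule and 2 podocyte markers was called in limma, with 1, 1 and 0 of them at an unadjusted p under 0.05. With arrays left out in turn, the calls of Aqp2, Slc6a19 and Slc5a12 held in every fit, and those of Slc5a2 and Aqp3 in none. Of the 6 such fits, Scnn1g was called in 1, Slc2a2 in 3 and Slc2a1 in 4. The part of these shifts in the P450 changes was not tested.

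Markers of liver and fat, other tissues rich in P450 genes, had summed signals that overlapped between the genotypes. The summed signal of 7 hepatocyte markers was 15.1 to 32.5 in WT and 16.3 to 25.8 in C3aR-/- samples. Most of this sum came from a single gene, Serpina1a. None of the 5 tested was called in limma, none of them at an unadjusted p under 0.05, and Apoa1 was dim on all arrays. For 5 adipocyte markers the sum was 0.198 to 0.226 in WT and 0.162 to 0.201 in C3aR-/- samples, with Adipoq, Plin1 and Cfd dim on all arrays. Lep, the only adipocyte marker tested, made up most of this sum. It was lower on every C3aR-/- array than on any WT array, but its log2 change of -0.20 (SE 0.11) did not pass (adjusted p = 0.237, limma).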

How the data were processed

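Cortical RNA of 3 WT and 3 C3aR-/- samples was hybridised to one-colour arrays. Titles of the samples gave genotype and replicate number. Per the file headers, Agilent Feature Extraction 10.7.1.1 gave each spot a background-subtracted intensity and flags, with coordinates on mm9. A deposited log2 table of the same arrays, of centring not given in the sources read, served as an alternative. Its columns had medians of 5.39 and nearly 1 set of sorted values, and correlated with their own arrays at 0.995 to 0.996.

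From the intensities, log2 signals were taken, the 75th percentile of each array (662 to 827) was subtracted, outlier spots were dropped and the remaining spots of a probe averaged. Probes well above background on all 3 arrays of a genotype were kept, and the brightest stood for its gene. A bound on a fold sets the brighter genotype against the dim value or the lowest signal well above background on that array, whichever was higher. The comparison used lmFit and eBayes of limma 3.58.1 under R 4.3.3. Its two-sided p-values were adjusted by Benjamini-Hochberg for 20490 genes, and 0.05 was the threshold. The fit was tested on simulated data, with 50 genes changed at each size. It recovered 42% of log2 changes of 0.5, 70% of those of 1, 88% of those of 2 and 100% of those of 3. Of its calls, 6.25% were false. A real change of 1 or less could thus fail to pass. Gene names came from the array files for P450 genes and otherwise from RefSeq, which matched 32994 of 56605 probes. The number of arrays limits the precision. Replicate numbers were not treated as pairs, since the deviations of same-numbered arrays correlated at -0.07 to 0.04.

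The P450 genes, lists and tests were chosen with earlier results of these data known. Named were P450 genes that passed, the 3 of smallest p in each family, the 10 brightest in WT, those dim in 1 genotype and those whose probes differed in sign, and, from the other lists, genes that passed or the 2 of smallest p. Other genes named were chosen after their values were seen. Alternatives were other scalings, background correction, filters, probe summaries and moderation, flagged spots kept, a replicate block, and each array left out. Values of 1 gene are not reported here.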

Additional observations from a re-analysis of the deposited data

How the results depend on the processing

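The median log2 change of the tested P450 genes was positive under all 16 alternatives, from 0.03 without a filter on dim probes to 0.24 with median scaling. Over all genes the median moved as well, to -0.09 without the filter and 0.07 with median scaling. Cyp2d12 and Cyp4b1-ps2 were called under all 16. The P450 genes called higher numbered 13 with normexp background correction, which lost Cyp27a1, and 14 with a trended, robust eBayes. They numbered 2 without a filter and 2 to 6 with 1 array left out. Those called lower numbered 1 without a filter and 1 with any array left out. Over all genes, 936 were called without a filter and 727 to 1693 with 1 array left out. These last fits hold fewer arrays; for the rest the cause was not tested. With the replicate number as a block, 4 P450 genes were called higher and 1 lower, and 650 genes in all. With median scaling, 63.4% of all calls were higher (1820 against 1052), in place of 49.3%, and 11 P450 genes were called higher. Signs turned only in genes that did not pass. Cyp2a5 was -0.046 with quantile normalisation, -0.015 with the deposited table and -0.094 to 0.10 with an array left out. Cyp2j13 was 0.017 with median scaling and -0.16 to 0.052 with an array left out. Cyp4f13 was 0.043 with median scaling, 0.079 with normexp, 0.098 as the mean of its probes and -0.066 to 0.058 with an array left out. Cyp20a1 was 0.26 on the brighter of its 2 probes that passed the filter in both genotypes and -3.12 to 0.19 with an array left out. Cyp2w1 was -0.054 with normexp. Cyp7b1 was -0.078 as the mean of its probes and -0.23 to 0.59 with an array left out. Leaving out arrays gave -0.46 to 0.065 for Cyp46a1 and -0.34 to 0.068 for Ttr. Alb was 0.14 as the mean of its probes, and Umod -0.086 with quantile normalisation and -0.043 with the deposited table.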
